A study of Mus musculus with 2 samples.

Results

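The genes described here are the nuclear factor I genes Nfia, Nfib, Nfic and Nfix (NFI) and the basic helix-loop-helix genes Olig1, Olig2 and Olig3, 7 of the 21668 protein-coding genes of chromosomes 1 to 19 and X in GENCODE vM21. They were chosen by name, as the members of 2 transcription factor families linked to the start of glial development, and the rule uses no measured value, although earlier results of these data were known when they were chosen. DNase-seq on the midbrain of B6NCrl mouse embryos at embryonic day 11.5 gave the chromatin accessibility around them. There was 1 group of 2 biological replicates, each of pooled male and female embryos with no genetic change or treatment in the labels, so the values below are descriptions and no condition could be compared. DNase I cuts DNA that is not wrapped in nucleosomes, and a peak is a short stretch where such cuts pile up. A hotspot is a wider region of raised cutting. In bulk tissue, a site open in a few cells and a site weakly open in many cells cannot be told apart.

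NFI proteins bind DNA as dimers at the palindrome TTGGC, 5 bases, GCCAA, and at single arms of it. In the embryonic mouse brain and spinal cord, Nfia and Nfib are required when neural progenitors turn from making neurons to making glia, and Nfix acts in the same progenitors and in adult neural stem cells. Nfic is the broadly expressed relative, best known in mice for its role in tooth root formation. Olig2, a repressor that binds the E-box CANNTG, specifies motor neurons and then oligodendrocyte precursors in the ventral spinal cord downstream of Sonic hedgehog. Olig1, its neighbour on mouse chromosome 16, acts in oligodendrocyte maturation and myelination, and Olig3 patterns the dorsal hindbrain and spinal cord. At the stage sampled, the midbrain holds mostly progenitors and newborn neurons, before most glia appear.

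The deposited lists held 305818 peaks in replicate 1 and 454408 in replicate 2, with median signals of 18 and 8. Only 30.8% of the peaks of replicate 1 and 21.7% of those of replicate 2 overlapped a peak of the other replicate. A shared site below is a merged region with a peak of both replicates, which 15.4% of all 583597 merged regions were. Sites farther than 2.5 kb from any protein-coding transcription start site (TSS) are called distal. Starts are those of GENCODE basic transcripts, a curated subset, unless said otherwise. A gene's span ran from 100 kb before to 100 kb after its record. The labelled tissue was checked at marker genes: a TSS peak of each replicate, which 65.5% of all protein-coding genes had, was found at 4 of 4 neural progenitor genes, 4 of 4 newborn neuron genes and 6 of 8 midbrain genes, Lmx1b and Fgf8 having one in replicate 2 only. Forebrain (2 of 2) and hindbrain (2 of 2) genes had them too, so promoter peaks did not separate midbrain from its neighbours. Endothelial (0 of 3), erythroid (0 of 4) and microglial (0 of 3) genes had none in both replicates, Pecam1 having a peak in replicate 1 alone. The mesenchymal list had 1 of 3, Twist1, and the glial list 1 of 4, Aldh1l1.

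The sequences below carry the accessibility described next. Each is a shared site read from GRCm38 (mm10), 5′ to 3′ in the direction of its gene. The first set shows the shared sites just before a start of Nfia, Olig1, Olig2 and Olig3. Those at the starts of Nfib lie in exons, Nfic had none, and that of Nfix is not shown. Capitals mark E-boxes (CANNTG), NFI arms (TTGGCA or its reverse complement) and the CTCF core (CC, any 3 bases, AG, any 2 bases, GGC, on either strand). No capitals appear in the 4 sequences shown, which says nothing of the starts not shown. The shorter NFI arm TTGGC, without the A, is not marked, and on either strand it occurs in the sites of Olig1 and Olig2. All 4 except that of Olig3, with 4, hold 13 or more CpG dinucleotides. A match is a string of letters and not a binding site.
Nfia TSS site, chr4:97777236-97777465 (+ strand): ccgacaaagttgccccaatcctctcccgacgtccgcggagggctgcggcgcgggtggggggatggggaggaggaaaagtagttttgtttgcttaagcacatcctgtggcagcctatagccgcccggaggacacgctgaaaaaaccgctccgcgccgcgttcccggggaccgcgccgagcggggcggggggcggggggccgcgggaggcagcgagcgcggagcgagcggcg
Olig1 TSS site, chr16:91269516-91269765 (+ strand): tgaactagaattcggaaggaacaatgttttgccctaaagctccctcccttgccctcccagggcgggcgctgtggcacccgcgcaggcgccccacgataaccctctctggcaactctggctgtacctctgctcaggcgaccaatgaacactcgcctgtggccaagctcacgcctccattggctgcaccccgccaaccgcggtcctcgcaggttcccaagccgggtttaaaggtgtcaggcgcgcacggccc
Olig2 TSS site, chr16:91225256-91225425 (+ strand): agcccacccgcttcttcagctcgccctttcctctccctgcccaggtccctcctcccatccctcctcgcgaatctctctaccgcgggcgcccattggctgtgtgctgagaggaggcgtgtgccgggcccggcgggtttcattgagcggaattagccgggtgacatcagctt
Olig3 TSS site, chr10:19356236-19356405 (+ strand): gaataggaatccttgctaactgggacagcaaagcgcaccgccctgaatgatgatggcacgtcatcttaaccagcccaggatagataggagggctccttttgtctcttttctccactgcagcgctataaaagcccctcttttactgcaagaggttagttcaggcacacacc

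The second set shows, for each gene, the distal shared site outside exons whose signal ranked highest on average over both replicates, to show the strongest distal site of each span. At Nfix 1 exonic site ranked higher and is described with the values.
Nfia distal site, 5.25 kb before the nearest basic start, chr4:97772256-97772465 (+ strand): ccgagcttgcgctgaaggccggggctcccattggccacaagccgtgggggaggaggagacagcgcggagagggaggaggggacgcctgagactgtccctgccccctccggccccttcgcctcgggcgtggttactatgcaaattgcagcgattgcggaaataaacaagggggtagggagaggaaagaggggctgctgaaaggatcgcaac
Nfib distal site, 7.52 kb before the nearest basic start, chr4:82513216-82513365 (− strand): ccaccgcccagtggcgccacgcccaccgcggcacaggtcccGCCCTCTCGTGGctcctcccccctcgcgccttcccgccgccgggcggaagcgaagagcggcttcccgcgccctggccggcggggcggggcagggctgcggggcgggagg
Nfic distal site, 9.01 kb before the first start, in an intron of Celf5, chr10:81464556-81464725 (− strand): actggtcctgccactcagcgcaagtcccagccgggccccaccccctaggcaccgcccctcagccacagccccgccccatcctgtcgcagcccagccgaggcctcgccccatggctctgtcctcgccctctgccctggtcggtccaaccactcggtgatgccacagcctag
Nfix distal site, 10.8 kb before the first start, chr8:84811036-84811185 (− strand): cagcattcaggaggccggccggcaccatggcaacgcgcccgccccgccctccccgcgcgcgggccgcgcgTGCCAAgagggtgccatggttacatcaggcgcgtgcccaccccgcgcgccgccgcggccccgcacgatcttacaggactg
Olig1 distal site, 82.5 kb after the start, chr16:91352156-91352325 (+ strand): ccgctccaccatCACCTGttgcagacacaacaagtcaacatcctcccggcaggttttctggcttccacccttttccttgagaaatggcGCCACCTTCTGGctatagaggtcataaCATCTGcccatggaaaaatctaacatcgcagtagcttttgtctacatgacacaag
Olig2 distal site, 88.9 kb after the start, chr16:91314236-91314405 (+ strand): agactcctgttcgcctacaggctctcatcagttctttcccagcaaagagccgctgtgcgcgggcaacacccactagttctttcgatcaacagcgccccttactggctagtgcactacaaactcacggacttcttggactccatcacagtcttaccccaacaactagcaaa
Olig3 distal site, 46.3 kb before the start, chr10:19310096-19310285 (+ strand): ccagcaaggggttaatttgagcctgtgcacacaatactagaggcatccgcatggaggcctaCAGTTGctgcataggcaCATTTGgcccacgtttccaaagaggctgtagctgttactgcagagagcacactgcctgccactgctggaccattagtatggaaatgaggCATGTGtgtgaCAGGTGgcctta
The distal site of Nfib holds a CTCF core match, that of Nfix an NFI arm, that of Olig1 a CTCF core match and 2 E-boxes, and that of Olig3 4 E-boxes. Those of Nfia, Nfic and Olig2 hold none of the 3 motifs as marked. The shorter arm TTGGC, without the A, occurs unmarked in those of Nfia and Olig3. The Olig2 site lies 44.5 kb after the start of Olig1 and is the next-ranked distal site of that gene too.

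All 7 genes had a peak of each replicate within 500 bp of an annotated start, as did 65.5% of protein-coding genes (68.0% had one in replicate 1 and 69.5% in replicate 2). All 7 also had a hotspot of each replicate there, as did 65.9% of genes. With a background this high, 7 of 7 says little about these genes in particular. Their signals were low to middling for open starts. The highest TSS signal had a median of 84 over the 7 genes in replicate 1, against 112 over the 14727 genes with a TSS peak there, and of 52 against 68 over 15050 genes in replicate 2. Every one of the 7 lay below the gene median in both replicates, as the plot of values at the starts shows. With the starts of all GENCODE transcripts counted, the highest values of Nfia were 134 and 79.

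**Figure D1:**
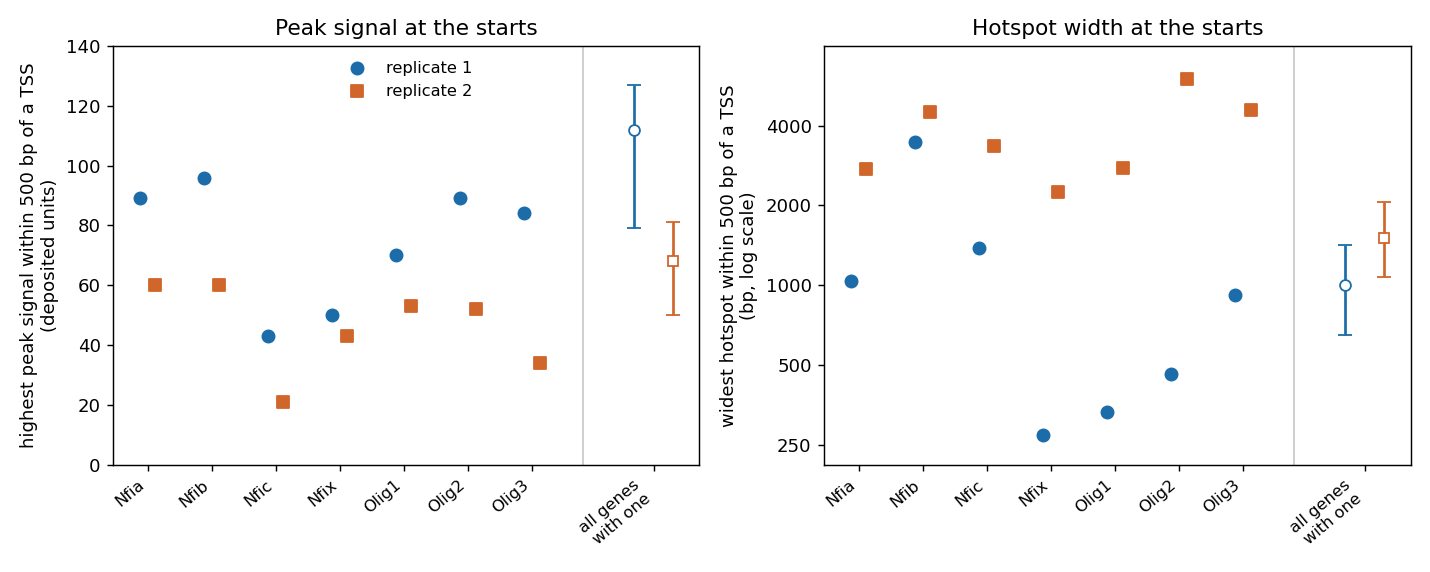
Left: highest peak signal within 500 bp of a start (deposited units) of each gene, replicate 1 (circles) and replicate 2 (squares). Right: width in bp of the widest hotspot there (log scale). Open symbols with bars give the median and the 25th to 75th percentile over all genes with such a peak or hotspot. All 7 genes lie below the gene median of signal, and in replicate 2 all 7 lie above the gene median of width.

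Among the NFI genes, Nfia (ENSMUSG00000028565.18, chr4:97772734-98118874, + strand) had a highest TSS signal of 89 in replicate 1 and 60 in replicate 2. Nfib (ENSMUSG00000008575.17, chr4:82290173-82705750, − strand) had 96 and 60, the highest of the 7 in replicate 1 and level with Nfia in replicate 2. Among open starts of replicates 1 and 2 these values stood at percentiles 29.9 and 36.9 for Nfia and at 34.3 and 36.9 for Nfib. Nfix (ENSMUSG00000001911.16, chr8:84699876-84800344, − strand) had 50 in replicate 1 and 43 in replicate 2. Nfic (ENSMUSG00000055053.18, chr10:81396186-81455635, − strand) had the lowest signals, 43 in replicate 1 and 21 in replicate 2, at percentiles 10.1 and 7.34. Nfia and Nfib, the pair tied to the glial switch, thus stood above Nfix and Nfic in both replicates within this window. With a 1000 bp window the order was lost in replicate 2, where Nfic had 69, Nfib 65, Nfia 60 and Nfix 53. In replicate 1 it was kept by a narrow margin, with Nfib at 97, Nfia 89, Nfic 87 and Nfix 50.

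The peaks called at the starts of Nfic differed between replicates. Replicate 1 had its single peak, signal 43, at the start of transcript Nfic-204 (position 81431005). Replicate 2 had none there and instead had peaks of up to 21 at the starts of Nfic-201, Nfic-202 and Nfic-203 (positions 81427114 to 81427187) and of up to 9 at that of Nfic-207 (position 81455635). At the start of Nfic-204 the difference is one of peak calls. Replicate 2 had a hotspot of 3355 bp, with a −log10 q-value of 100, over that start too. At the other starts the hotspots differed as well. Replicate 2 had hotspots of 2361 bp at Nfic-201 to Nfic-203 and of 1687 bp at Nfic-207, where replicate 1 had none within 500 bp. By its peaks, Nfic was the only one of the 7 without overlapping TSS peaks of both replicates, which 62.7% of genes had. Just past the window, at 520 bp, lay a shared site, and with a 1000 bp window the highest TSS signals of Nfic were 87 and 69.

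The 3 Olig genes are short, with 1 annotated start each. Olig2 (ENSMUSG00000039830.9, chr16:91225457-91228677, + strand) had a highest TSS signal of 89 in replicate 1 and 52 in replicate 2. Olig1 (ENSMUSG00000046160.6, chr16:91269772-91271933, + strand) had 70 and 53, so the order of this pair in replicate 1 was not seen in replicate 2. Olig3 (ENSMUSG00000045591.6, chr10:19356533-19358604, + strand) had 84 and 34, at percentiles 27.3 and 13. Olig2 and Olig3 stood close together in replicate 1 and apart in replicate 2. Each Olig start had 2 shared sites within the window. In replicates 1 and 2, the site before the start had signals of 89 and 52 at Olig2, 70 and 37 at Olig1, and 84 and 32 at Olig3. The site inside the gene had 32 and 43 at Olig2, 37 and 53 at Olig1, and 37 and 34 at Olig3. At Olig1 and Olig3 the replicates placed the highest signal on opposite sides of the start.

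CpG content around the starts did not order the genes in the same way. The highest observed to expected CpG ratio in 1 kb around a start was 1.12 for Nfix, the 99.9th percentile of all genes, although its TSS signal was among the lowest of the 7. It was 0.97 for Nfia, 0.91 for Nfib and 0.81 for Nfic, against a median of 0.61 over all genes. For the Olig genes it was 0.81 for Olig1, 0.76 for Olig2 and 0.54 for Olig3, so that Olig2 and Olig3 lay below every NFI gene and Olig3 below the gene median.

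Hotspots around the starts were wide in replicate 2. The widest hotspot at a start measured 5998 bp for Olig2, 4598 bp for Olig3 and 2776 bp for Olig1 in replicate 2, where the median over all genes with one was 1512 bp. In replicate 1 the same genes had 463, 914 and 331 bp, all below the gene median of 1001 bp. The Olig2 hotspot of replicate 2 ran over the whole gene, and so did that of Olig1. Hotspots covered 100% of the records of Olig1 and Olig2 and 88.5% of that of Olig3 in replicate 2, against 20.2%, 30% and 49.8% in replicate 1. The NFI genes had widths of 2743, 4486, 3355 and 2242 bp in replicate 2 (Nfia, Nfib, Nfic, Nfix) and of 1039, 3467, 1384 and 272 bp in replicate 1. Nfib had the widest start hotspot of the 7 in replicate 1, and its widths stood at percentiles 99.3 and 97.6 in replicates 1 and 2. All 7 were wider in replicate 2, as were 90.4% of genes with a start hotspot in both, so this direction was common to most genes. The strongest −log10 q-value of the hotspots at each start was at the ceiling of 100 in both replicates, except for Nfix in replicate 1, where it was 3.06.

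Around these genes, distal sites were dense. The 7 spans, which make 6 loci because those of Olig1 and Olig2 overlap, covered 2170.2 kb and held 559 peaks of replicate 1 and 1015 of replicate 2. Merged, these gave 1169 sites, of which 269 were shared and 189 were shared and distal. At least 1 distal shared site was found for 7 of 7 genes, against 89.8% of all genes. The density was 9.84 distal shared sites per 100 kb of span at the median of the 7 genes, against 2.56 at the median of all 21668 genes. All 7 lay above the upper quartile of all genes, 4.43 per 100 kb.

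**Figure D2:**
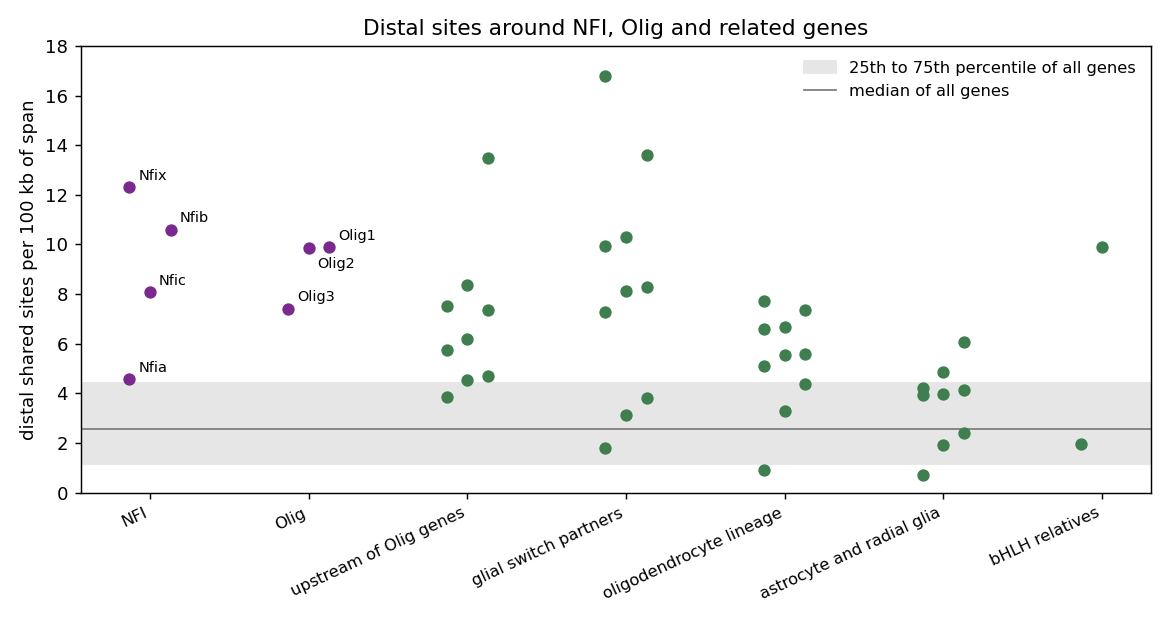
Distal shared sites per 100 kb of span (vertical axis) for each NFI and Olig gene and for the genes of 5 related lists (horizontal axis), 1 point per gene. The line is the median over all protein-coding genes, 2.56, and the band their 25th to 75th percentile; all 7 NFI and Olig genes lie above the band.

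Nfix had the highest density, 12.3 distal shared sites per 100 kb (37 sites, percentile 99). Nfib followed with 10.6 (65 sites, percentile 98), the largest number of sites of the 7, with a run of weak sites described below. Olig1 had 9.89 and Olig2 9.84, each with 20 sites, and most of these are the same sites, since their spans overlap. Nfic had 8.09 (21 sites) and Olig3 7.42 (15 sites). Nfia was the lowest, with 4.58 (25 sites in 546.1 kb), at percentile 76.4. Nfia and Nfib, with TSS signals of 89 and 96 in replicate 1 and of 60 each in replicate 2, thus had close TSS signals and unlike densities of distal sites. Within 10 kb of the span edges lay 0 to 4 shared sites per gene on the inner side and 0 to 8 on the outer side.

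Nfix and Nfic lie among other genes, which the counts include. The span of Nfic holds starts of 16 other protein-coding genes, among them Celf5, Gna11 and Fzr1, and 13 of its 47 shared sites lay at those starts. That of Nfix holds starts of 12 others, among them Calr, Lyl1 and Nacc1, with 11 of its 64 shared sites. The spans of Nfib and Olig3 hold none, and that of Nfia only E130114P18Rik. Sites in the spans of Nfic and Nfix, and those of the Nfia span that lie in E130114P18Rik, cannot be given to one gene by position.

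**Figure D3:**
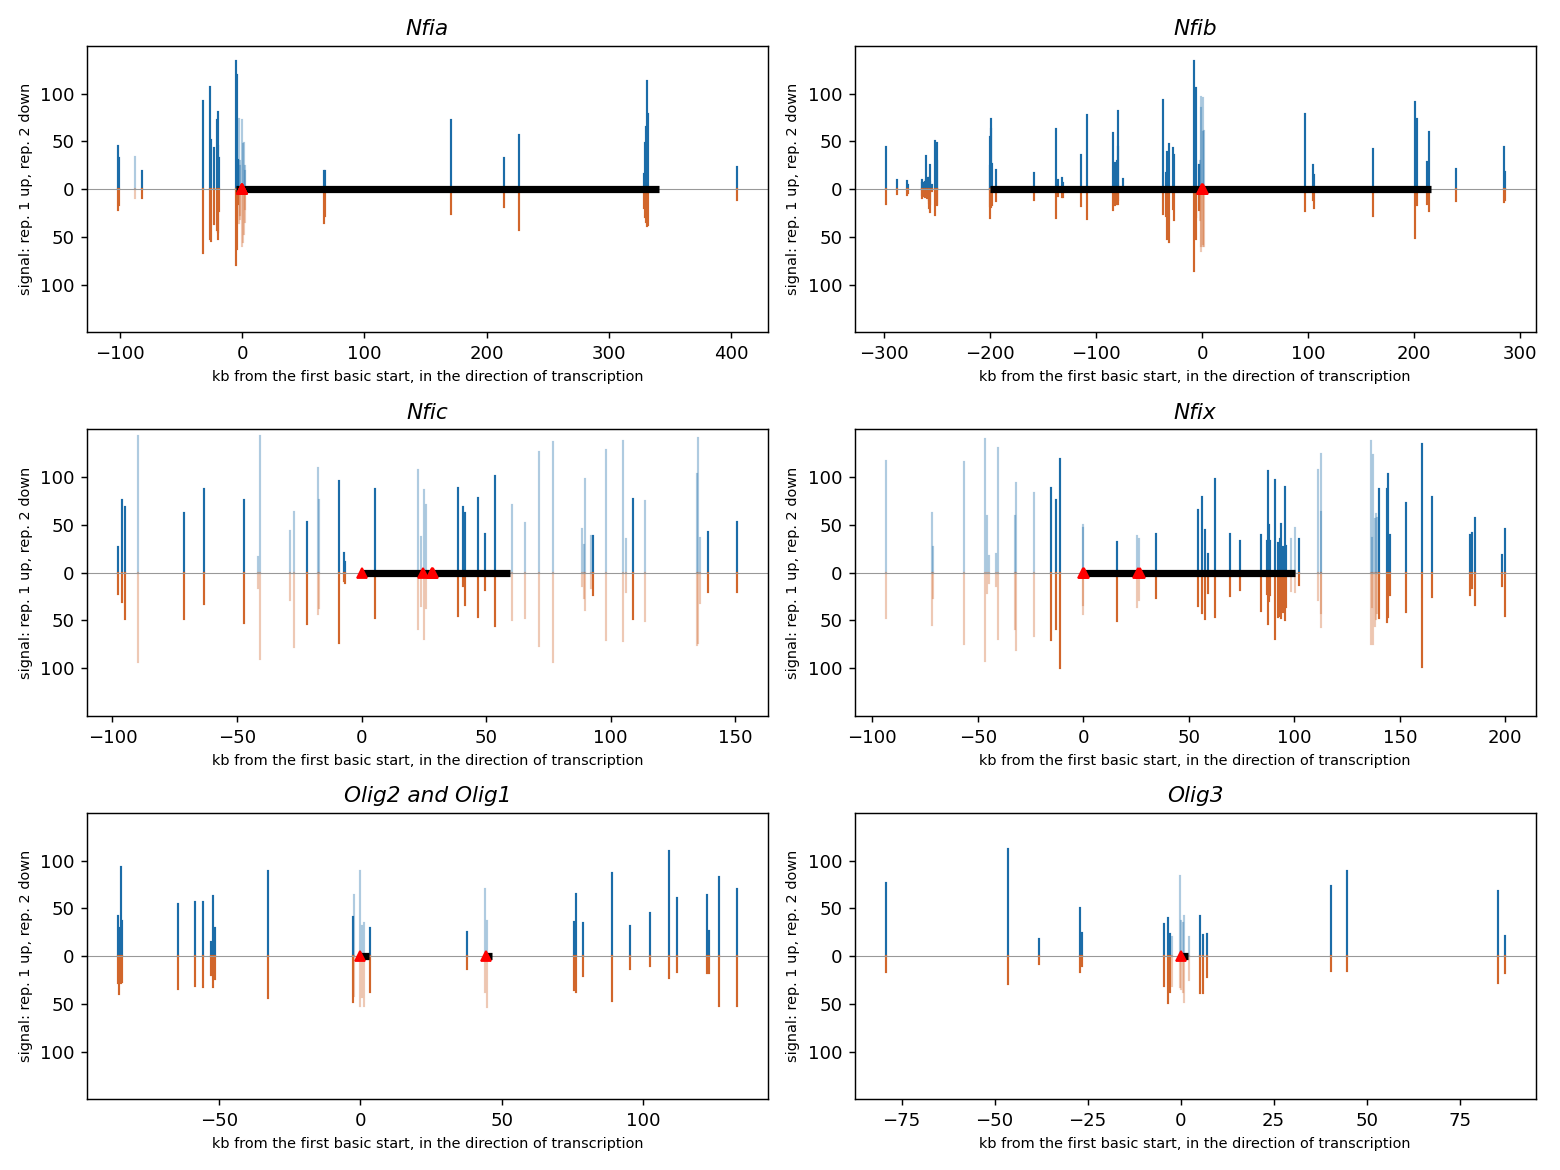
Signal (deposited units) of each shared site, replicate 1 upward in blue and replicate 2 downward in orange, against the distance in kb from the first basic start in the direction of transcription, 1 panel per locus. Black bars are gene records, red triangles are basic starts, and pale lines are sites within 2.5 kb of any protein-coding start. Sites of Nfib fill the region before its start, while its gene body after the start holds few.

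Where the sites lay differed among the NFI genes. Before the record of Nfib lay 25 shared sites and after it 3, so that 89.3% of its flanking sites were upstream. For Nfia these counts were 13 and 1, or 92.9%. Of the 34 shared sites in the span of Nfia, 33 lay in introns of protein-coding genes but only 20 in its own record. The upstream sites 5.25 and 31.6 kb before its nearest basic start lay in introns of E130114P18Rik. Over the 11916 genes with at least 10 flanking shared sites the median was 50%, and 2.18% of them reached the share of Nfib. These shares were picked out after their values were seen. Many of the 25 sites before Nfib were weak. Most of those from −254.51 to −264.22 kb of its first basic start had replicate 1 signals of 2 to 12. The median over all peaks of replicate 1 was 18, and the 3 sites after the record had 18, 44 and 21 there. These shares were not computed on stronger sites alone. Nfic (17 before, 19 after), Nfix (16 and 22), Olig1 (13 and 12), Olig2 (14 and 10) and Olig3 (10 and 8) had sites on both sides.

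The gene record of Nfib begins 200.0 kb before its first basic start, at a transcript outside the basic set (Nfib-212). This stretch held 32 shared sites, and the 215.6 kb from the first basic start to the end held 11. The start of Nfib-212 itself had peaks of 55 in replicate 1 and 30 in replicate 2. Nfia likewise had 14 shared sites in the 341.3 kb after its first basic start. The large intron 2 of Nfib-203 (115 kb) and the intron 2 of Nfia-202 (173 kb) held 3 shared sites each. Nfix held 26 in its 100.5 kb and Nfic 11 in its 59.5 kb, a density of 25.9 and 18.5 per 100 kb, against 5.1 for Nfib and 4.1 for Nfia from the first basic start to the end.

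The strongest distal sites were stronger than the starts for the NFI genes. At Nfia the top distal site had signals of 134 and 79 in replicates 1 and 2, against 89 and 60 at its basic starts. This site lies in an intron of E130114P18Rik and within 500 bp of the start of Nfia-208, a transcript outside the basic set. At Nfib the top distal site had 134 and 86, against 96 and 60 at the starts. At Nfix a site in an exon of Cacna1a, a calcium channel gene (chr8:84639496-84639685), had 135 and 99, and the intergenic site 10.8 kb before the first start had 119 and 100, against 50 and 43 at the starts. At Nfic the top distal site had 96 and 74, against 43 and 21.

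No Olig gene had a single distal site above its start in both replicates. At Olig3 the top distal site had 112 in replicate 1 and 29 in replicate 2, against 84 and 34 at its start, while another, 3.37 kb before the start, had 40 and 49. Each replicate thus had a distal site above the start of Olig3, but not the same one. At Olig2 the top site had 87 and 47, against 89 and 52 at the start. At Olig1 it had 83 and 52, against 70 and 53. A distal shared site above the highest TSS signal in both replicates was thus found for 4 of the 7 genes, all 4 NFI and 0 of 3 Olig genes, against 18.6% of 13894 genes with an accessible TSS and a distal shared site. The share was 30.5% among the 2389 such genes with 15 or more distal shared sites, 15 being the fewest of the 7. Nfia had 3 such sites, Nfib 1, Nfic 13 and Nfix 12. With the 1000 bp window, which takes in the shared site just past the starts of Nfic, Nfic had 1, Nfix 6, and Nfia and Nfib 3 and 1. When all GENCODE transcripts defined the starts, Nfia no longer met the rule, which left 3 genes, and Nfix had 6 such sites. In replicate 1 read alone all 7 genes met it, and in replicate 2 read alone 5 did, Olig3 being the added one. Whether a start of Nfic or Nfix or of a neighbouring gene goes with those sites was not tested.

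**Figure D4:**
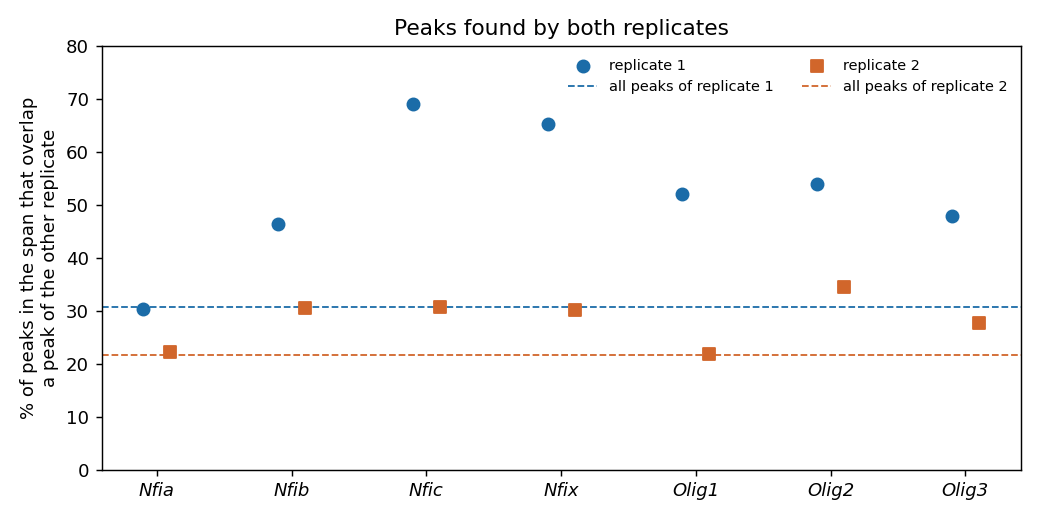
Share of the peaks in each gene's span that overlap a peak of the other replicate (vertical axis, %), replicate 1 as circles and replicate 2 as squares. Dashed lines give the same share over all peaks of each replicate, 30.8% and 21.7%; Nfia lies on the lines and the other 6 genes lie above that of replicate 1.

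Peaks around these genes were shared more often than peaks at large. In replicate 1, 50.4% of the 559 peaks in the spans overlapped a peak of replicate 2, against 30.8% of all peaks. In replicate 2 it was 28.2% of 1015, against 21.7%. Nfic (69%) and Nfix (65.3%), whose spans hold the most gene starts, had the highest shares in replicate 1. Olig2 had 54%, Olig1 52%, Olig3 47.8% and Nfib 46.3%. Nfia had 30.3%, near the share over all peaks. In replicate 2 the shares ran from 21.9% for Olig1 to 34.5% for Olig2. Those of Olig1 and Nfia (22.2%) were near the 21.7% of all peaks.

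The signals of shared sites also kept their order unevenly between replicates. Over the 269 shared sites Spearman's rho of the 2 signals was 0.72, against 0.79 over all 89717 shared sites. By gene it was 0.73 for Nfia, 0.78 for Nfib, 0.80 for Nfic and 0.74 for Nfix. For Olig1 it was 0.42 (26 sites), for Olig2 0.35 (26 sites, many the same) and for Olig3 −0.01 (21 sites). Sites of a locus share both libraries, so these are descriptions of 2 libraries. At the Olig genes, the rank of a single site thus rests on the replicate read.

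Strong peaks of 1 replicate alone occurred too. Between Olig2 and Olig1, 21 kb after the start of Olig2, replicate 1 had a peak of 80 (chr16:91246416-91246565) with no overlap in replicate 2. In replicate 2 a peak of 46 in the Olig2 record (chr16:91227296-91227445) had none in replicate 1. At Nfia, both replicates had a peak just around the basic starts that the other did not overlap, 89 in replicate 1 (chr4:97777676-97777825) and 57 in replicate 2 (chr4:97777856-97778005). A hotspot of each replicate, with a −log10 q-value of 100, covered both of these peaks, so at Nfia the difference is one of peak calls.

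Short motifs were counted in 150 bp around the midpoints of the 189 distal shared sites, on either strand, beside all 60576 distal shared sites of the genome. Intervals are 95% Wilson intervals and cover counting error only, and 10 motifs were searched. The full NFI palindrome was found in 0 of the 189 (upper bound 1.99%), against 0.0462% of all sites. Its arm with an A after it, TTGGCA, was found in 21 (11.1%, 7.38 to 16.4), against 8.27%. Of the 21, 10 lay around Nfib, which holds 65 of the 189 sites. The shorter arm TTGGC was not counted. E-boxes (CANNTG, which includes the 3 named E-boxes below) were found in 58.7% (51.6 to 65.5), against 60%. CAGCTG was in 13.2%, against 14.6%, CATATG in 1.06%, against 2.48%, and CAGATG in 15.3%, against 15%. The SOX motifs ACAAAG and ACAATG were in 19.6%, against 16.8%, and 7.94%, against 9.82%, and the homeodomain motif TAATTA was in 4.23%, against 3.5%. For these motifs every interval over the 189 sites held the genome-wide share.

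Around the Olig genes, with 41 distal shared sites, ACAAAG was in 31.7% (19.6 to 47), against 16.8% of all sites, and E-boxes in 73.2% (58.1 to 84.3, which holds the genome-wide share), against 60%. In 300 bp windows ACAAAG was in 41.5% (27.8 to 56.6), against 29.5%, and the interval then held the genome-wide share. By gene, in 150 bp windows, ACAAAG was in 40% of sites at Olig3, 25% at Olig1 and 20% at Olig2, beside 24.6% at Nfib. TAATTA was in 4 of the 41 sites (9.76%, 3.86 to 22.5), against 3.5%. With 300 bp windows TAATTA was in 12.2% (5.32 to 25.5), an interval that holds the genome-wide 7.93%. CAGATG was in 24.4% of the 41 sites (13.8 to 39.3, which holds the genome-wide 15%), but unevenly by gene. At Olig3 it was in 7 of 15 sites (46.7%, 24.8 to 69.9), at Olig1 in 15% and at Olig2 in 5%. In 300 bp windows it was in 60% at Olig3 (35.7 to 80.2), against 25.4%. The CAGATG share of Olig3 and the ACAAAG and TAATTA shares of the Olig genes were picked out among motifs and genes after their values were seen. The CTCF core, searched after the first sequences were read, was in 10.1% of the 189 sites (6.53 to 15.2), against 18.5%. The core was in 28.6% for Nfic (13.8 to 50) and 21.6% for Nfix (11.4 to 37.2), and both intervals hold the genome-wide share. It was in 4.62% for Nfib (1.58 to 12.7), 0% for Nfia (upper bound 13.3%) and 4.88% for the Olig genes together (1.35 to 16.1).

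Other genes of the glial programme were read in the same way. All 9 genes upstream of Olig2 in the ventral tube had accessible starts, against 65.5% of all genes: Shh, the ligand, had TSS signals of 46 and 42 in replicates 1 and 2, its receptor Ptch1 61 and 64, the effector Gli2 127 and 74, and the patterning gene Nkx6-1 123 and 75. Their median density was 6.18 distal shared sites per 100 kb, against 2.56 over all genes, and Nkx6-1 had 13.5. Of 10 partners in the glial switch 9 had accessible starts, with a median density of 8.21 per 100 kb, against the same 65.5% and 2.56 over all genes. Sox9, which acts with Nfia in mouse spinal cord gliogenesis, had TSS signals of 131 and 69 and 7.3 distal shared sites per 100 kb. Its start signals lay above those of every NFI gene within 500 bp of basic starts. Nfia had 134 and 79 when all transcripts were counted, which was not done for Sox9. Zbtb20, the exception, had a start peak of 13 in replicate 2 only.

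Genes of the glial lineages, from precursors and radial glia to differentiated cells, were read last. Of 10 oligodendrocyte lineage genes 7 had accessible starts, against the 65.5% of all genes. Pdgfra, the receptor that marks oligodendrocyte precursors, had TSS signals of 117 and 76. Sox10, which drives the lineage, had a start peak of 25 in replicate 2 only, and the myelin gene Mog had none in either replicate. Of 9 astrocyte and radial glia genes 7 did: Fabp7, a radial glia gene, had 112 and 62, Slc1a3, a glutamate transporter, 54 and 58, while Gfap and S100b had none. Median densities were 5.56 and 3.98 per 100 kb, against 2.56 over all genes. Of the nearest bHLH relatives of the Olig genes, Bhlhe22 had TSS signals of 76 and 58 and 1.97 distal shared sites per 100 kb, and Bhlhe23 had 43 and 34 and 9.88.

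The genes most like each NFI or Olig gene were found by distance over 4 percentiles (TSS signal in each replicate, density of distal shared sites and span share in hotspots). For TSS signal these were percentiles among all genes, such as 52.4 and 56.2 for Nfia, and not those among open starts given above. Nearest to Nfia were Mycbpap and Trim2, to Nfib Nnat and Tlx3, to Nfic Ankrd53 and Dnah2, and to Nfix Bcan and Wnt6. Dlx5 and Lrrc4b were nearest to Olig1, Hhipl1 and Clip3 to Olig2, and Osbpl7 and Acot11 to Olig3. The nearest gene lay at 1.99 (Bcan, to Nfix) to 5.79 (Osbpl7, to Olig3) percentile units, over 2 replicates of 1 tissue.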

How the data were processed

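DNase-seq was deposited for 2 biological replicates of embryonic day 11.5 midbrain, as a peak list and a hotspot list for each replicate on mm10, made per replicate and not pooled, per the labels and the deposited file records. The aligner and caller are unknown (not given in the sources used here). Each deposited signal of a peak is a whole number with no stated normalization, used as the authors' own value. The deposited −log10 q-value of a hotspot is capped at 100. Read depth is unknown, so no interval that needs it is given.

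Lists were restricted to chromosomes 1 to 19 and X. Peaks were merged at an overlap of 1 bp or more. Starts were those of GENCODE vM21 basic coding transcripts on GRCm38. Python 3.11.15, NumPy 2.4.6 and SciPy 1.17.1 were used, and the counting steps were tested on simulated data. A start or peak was paired within 500 bp, and span sites were taken by midpoint. With 1 group and 2 replicates no test was made; values stand beside those of all genes.

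The named genes are the 7 members, the genes of the lists, genes with a start in a span, and for each member the 2 most alike genes; the named sites are the highest-ranked site at the start, the highest-ranked distal site and the strongest unshared peak of each replicate. Members and lists were chosen with earlier results of these data known. The replicates were sequenced on different sets of instruments, per the labels, and replicate and instrument cannot be told apart. Some genes of the lists and 1 sequence are not reported here.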

Additional observations from a re-analysis of the deposited data

How the results depend on the processing

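All 7 genes kept an accessible start under each of the 7 alternatives run for it (start windows of 150 and 1000 bp, all transcripts, stronger peaks, each replicate alone, hotspots in place of peaks). The 269 shared and 189 distal shared sites depend on requiring both replicates: single replicates held 533 to 915 sites and 423 to 722 distal ones. With spans of 50 kb, 124 distal shared sites remained, since less sequence is read. The share of peaks shared was 60.4% in replicate 1 and 35.4% in replicate 2 among peaks at or above their median signal, and 33.5% and 18.6% when an overlap of 50% was asked. The median percentile of distal density was 97.3, the value of both Olig1 and Olig2, which share most of their sites. It was 95.1 with stronger peaks, 95.8 with 50% overlap and 96.1 with hotspots. With 50 kb spans it was 92.7, with distal set at 1 kb 96.6, and in single replicates 93 to 93.6. The number of genes with a distal site above the start in both replicates, 4, was 5 to 7 in single replicates, 3 with all transcripts and 5, with Olig1 added, in a 150 bp window; these alternatives were added after the data were seen. The causes were not tested. No value changed direction, there being no difference between groups. No paired analysis was possible because the series has 1 group and no result comes from a test. Unknown depth limits how a site missing in 1 replicate can be read.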
